A study of Mus musculus with 3 samples.

Results

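Genes that couple excitation of the muscle membrane to calcium release, and then store, take up or buffer the calcium, were read in back skin of WT, KO and KOE mice. The set holds 10 genes, picked by name for their role in the muscle, with earlier results of these arrays known, which are Cacna1s, Cacng1, Ryr1, Trdn, Casq1, Casq2, Atp2a1, Atp2a2, Sln and Pvalb. Atp2a2 was included as a contrast, since it is expressed far beyond muscle. Every probe set whose platform annotation names 1 of these genes was used, which gives 22 of 45101 probe sets, for 10 of 18193 named genes. RNA was measured on 3 Affymetrix mouse genome arrays, 1 per group, each with 250 ng of RNA pooled from male mice. WT mice were C57BL/6J and received the AIN-93-based diet, KO mice carried the Interleukin-10 knockout and received that same diet, and KOE mice carried the knockout and received a diet with 8% powdered eggshell membrane (pESM). Feeding started at 4 weeks of age and lasted 28 weeks. There were 5 WT, 7 KO and 6 KOE mice, and the sources used here do not give the number whose RNA was pooled. The KO males came from a cross of knockout mice with C57BL/6J, and WT mice are not described as their littermates.

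In skeletal muscle, depolarization of the membrane moves the voltage sensor, a calcium channel of the transverse tubule, which opens the ryanodine receptor in the facing membrane of the sarcoplasmic reticulum. Calcium leaves the store, where it was held by calsequestrin, and triggers contraction. SERCA pumps then return it to the store, and in fast fibers parvalbumin binds calcium in the cytosol and speeds relaxation. Mouse back skin lies on a thin sheet of skeletal muscle, the panniculus carnosus. Dermal white adipose tissue was taken off the skin per the methods, which do not say whether the muscle sheet stayed with the sample.

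Values are linear signal intensities. A signal of at least 40 is the lower limit in the study's cut-off, and a difference of 1.5-fold or more, in a gene that reached 40 on either array of the pair, is called past the cut-off here. With 1 array per group there are no replicates, so no difference below has a test or an error over mice, and directions hold for these pools. Technical spread was gauged from genes with several probe sets, whose log2 fold changes within a gene had an SD of 0.35 between KO and WT, 0.28 between KOE and KO and 0.33 between KOE and WT, over 6055 genes with such probe sets at 40 or more on all arrays. Signals of different probe sets are not on a common scale, so levels are compared between arrays and not between genes.

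Where a gene has several probe sets, the one strongest on average over the arrays stands for it. On this basis KO was below WT past the cut-off for 7 of the 10 genes, above it for 1, and within the cut-off for 2. Over all 14495 genes that reached 40 on 1 of these arrays, 14.5% were lower and 10.9% were higher. In KOE compared with KO, 7 of the 10 genes were higher, none was lower and 3 were within the cut-off, where 10.9% of 14594 genes were higher and 5.33% lower. In KOE compared with WT, 1 gene was higher and none was lower, where 12.4% of 14784 genes were higher and 10.4% lower. The median log2 fold change of the 10 genes was −0.93 between KO and WT, 1.24 between KOE and KO and 0.21 between KOE and WT, against 0.01, 0.02 and 0.05 over all genes tested. The single KO array enters both of the first comparisons, and any error of that array moves them in opposite directions. All 10 genes reached 40 on at least 1 array of each pair, and 7 of them reached 40 on all 3. Cacna1s and Cacng1 passed through WT or KOE alone, so they could be counted only as lower in KO, and Sln, under 40 in WT, only as higher than WT.

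**Figure D1:**
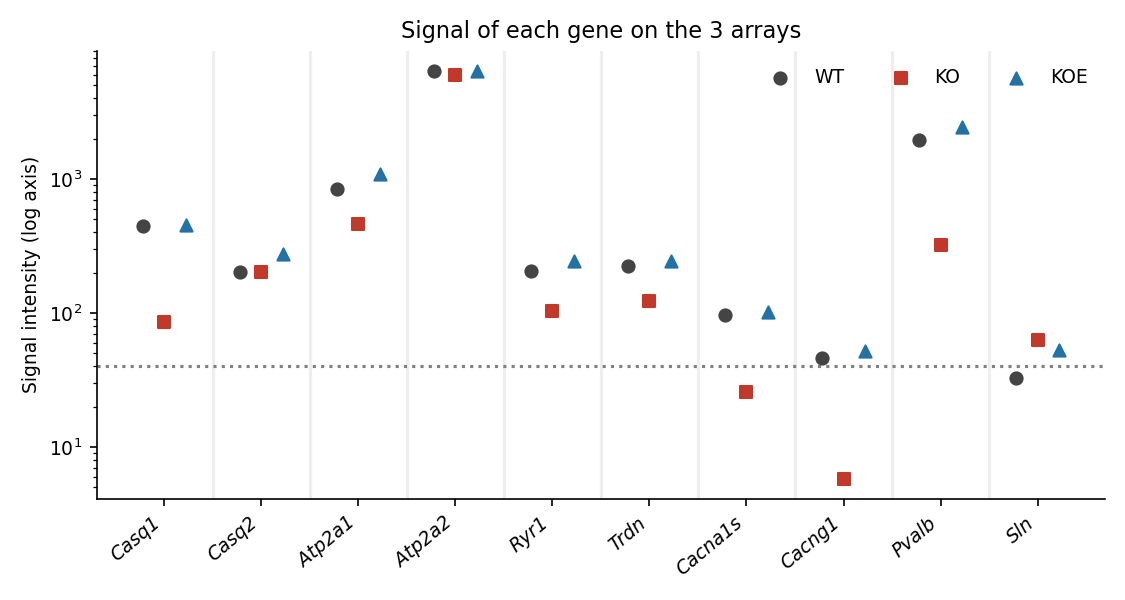
Signal intensity (log axis) of the 10 genes in the WT, KO and KOE pools, each at its strongest probe set. Each point is 1 array, and the dotted line marks a signal of 40. KO is the lowest of the 3 arrays for 8 genes, by a wide margin for Casq1 and Pvalb, whose signals all exceed 40, and with KO under the limit for Cacna1s and Cacng1, whereas Atp2a2 and Casq2 are nearly level between KO and WT and Sln is highest in KO.

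The voltage sensor genes had weak signals, and KO was under the limit for both. Cacna1s encodes the pore of the skeletal muscle L-type calcium channel, and its probe set had signals of 96.1, 25.6 and 102 in the WT, KO and KOE pools. The KO array lay under 40 and the other arrays lay close together, with KOE at 1.06-fold WT. Cacng1, which encodes the gamma subunit of the same channel, had 45.9 (WT), 5.80 (KO) and 51.9 (KOE). All 3 signals of Cacng1 were near or under the limit, and with signals under 40 set to 40 its log2 fold change shrank from −2.99 to −0.20 for KO vs. WT and from 3.16 to 0.38 for KOE vs. KO. For Cacna1s it went in the same way from −1.91 to −1.26 (KO vs. WT) and from 2.00 to 1.35 (KOE vs. KO), and stayed past the cut-off. With 40 added to every signal it was −1.05 and 1.11 for Cacna1s, and −0.91 and 1.01 for Cacng1.

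At its stronger probe set, the release channel gene had signals above 40 on all arrays. Ryr1, the ryanodine receptor of skeletal muscle, had signals of 206, 103 and 242 in the WT, KO and KOE pools, so that KO held 50.2% of the WT signal and KOE 2.35-fold the KO signal. Its other probe set stayed under 40 on all arrays, with 22.7 (WT), 3.07 (KO) and 4.02 (KOE). At this weak probe set KO and KOE were both below WT.

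Trdn encodes triadin, a protein of the sarcoplasmic reticulum membrane that links the ryanodine receptor with calsequestrin, and 6 probe sets carry its name. The strongest probe set, of a type that can cross-hybridize, had 226 (WT), 123 (KO) and 243 (KOE). A further probe set had 126 (WT), 99.6 (KO) and 259 (KOE), and another 85.4, 15.9 and 126. In all of these KO was lowest and KOE highest, although the ratio of KO to WT ranged from 0.19 to 0.79. KOE was 1.08-, 2.06- and 1.47-fold WT at the same probe sets, so the level of Trdn in KOE relative to WT depended on the probe set. The other probe sets of Trdn did not exceed 21.7 on any array.

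The 2 calsequestrin genes behaved differently on these arrays. Casq1, the calsequestrin of fast skeletal muscle, had signals of 442, 85.3 and 451 in the WT, KO and KOE pools, or 5.18-fold lower in KO than in WT and 5.29-fold higher in KOE than in KO. Casq2, the form of heart and slow muscle, had 202 (WT), 204 (KO) and 274 (KOE). Its signals in WT and KO were equal to within 1%, and KOE was 1.34-fold KO, which is under the cut-off. Each gene has 1 probe set, that of Casq2 is of a type that can match several transcripts, and the difference between the 2 genes could not be tested.

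Among the pumps, the one of fast muscle was past the cut-off for KO vs. WT and KOE vs. KO, and the strongest probe set of the general one was not. Atp2a1 encodes SERCA1, the pump of fast fibers, and had signals of 837, 459 and 1097 in the WT, KO and KOE pools. KO held 54.8% of the WT signal and KOE 131%, so KO was lowest and KOE highest. Atp2a2 encodes SERCA2, used by slow muscle, heart, smooth muscle and non-muscle cells including keratinocytes. Its strongest probe set had 6372 (WT), 5999 (KO) and 6390 (KOE), and log2 fold changes of −0.09 (KO vs. WT) and 0.09 (KOE vs. KO). After scaling to a common median, which shifts all genes of an array alike, they were 0.18 and −0.07, whereas after quantile normalization they were −0.16 and 0.13, and after cyclic loess normalization −0.23 and 0.12, so no direction is given for Atp2a2.

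The 6 probe sets of Atp2a2 did not all follow the strongest one. Those with 1718, 1949 and 1855, and with 590, 509 and 609, in WT, KO and KOE were also within the cut-off in every comparison. At a further probe set the signal was 666 (WT), 828 (KO) and 1087 (KOE), so that KOE was 1.63-fold WT. At another it was 425 (WT), 291 (KO) and 276 (KOE), or 1.54-fold lower in KOE than in WT. The weakest had 82.7 (WT), 32.1 (KO) and 32.9 (KOE), so that both knockout pools were past the cut-off below WT. None of the 6 was past the cut-off for KOE vs. KO.

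Sln encodes sarcolipin, a small membrane protein that inhibits SERCA pumps, and it was the gene higher in KO than in WT. The stronger probe set had 32.6 (WT), 62.4 (KO) and 52.8 (KOE). KO was thus 1.91-fold and KOE 1.62-fold WT, with the WT signal under 40. The second probe set stayed under 40, with 6.01, 3.70 and 8.97, and was lowest in KO. With 40 added to every signal, the log2 fold change of the stronger probe set was 0.50 for KO vs. WT and no longer past the cut-off.

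Pvalb, the gene for parvalbumin, was measured at a high signal. Its probe set had 1967 (WT), 321 (KO) and 2439 (KOE). All 3 signals were far above 40, KO held 16.3% of the WT signal, and KOE was 7.59-fold KO and 1.24-fold WT.

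Ordered by the log2 fold change for KO vs. WT as deposited, the genes ran from Cacng1 (−2.99) through Pvalb (−2.61), Casq1 (−2.37), Cacna1s (−1.91), Ryr1 (−0.99), Trdn (−0.87), Atp2a1 (−0.87), Atp2a2 (−0.09) and Casq2 (0.01) to Sln (0.94). The places of Cacng1 and Cacna1s rest on KO signals under 40 and are not measured, since with such signals set to 40 their values were −0.20 and −1.26, and Pvalb and Casq1 then came first. Ryr1, Trdn and Atp2a1 lay within the 0.35 by which probe sets of 1 gene differ, and so did Atp2a2 and Casq2, and Pvalb and Casq1. In KOE compared with WT, the log2 fold changes of Casq1, Atp2a2, Trdn, Cacna1s, Cacng1, Ryr1 and Pvalb were between 0.00 and 0.31. Those of Atp2a1, Casq2 and Sln were 0.39, 0.44 and 0.69.

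**Figure D2:**
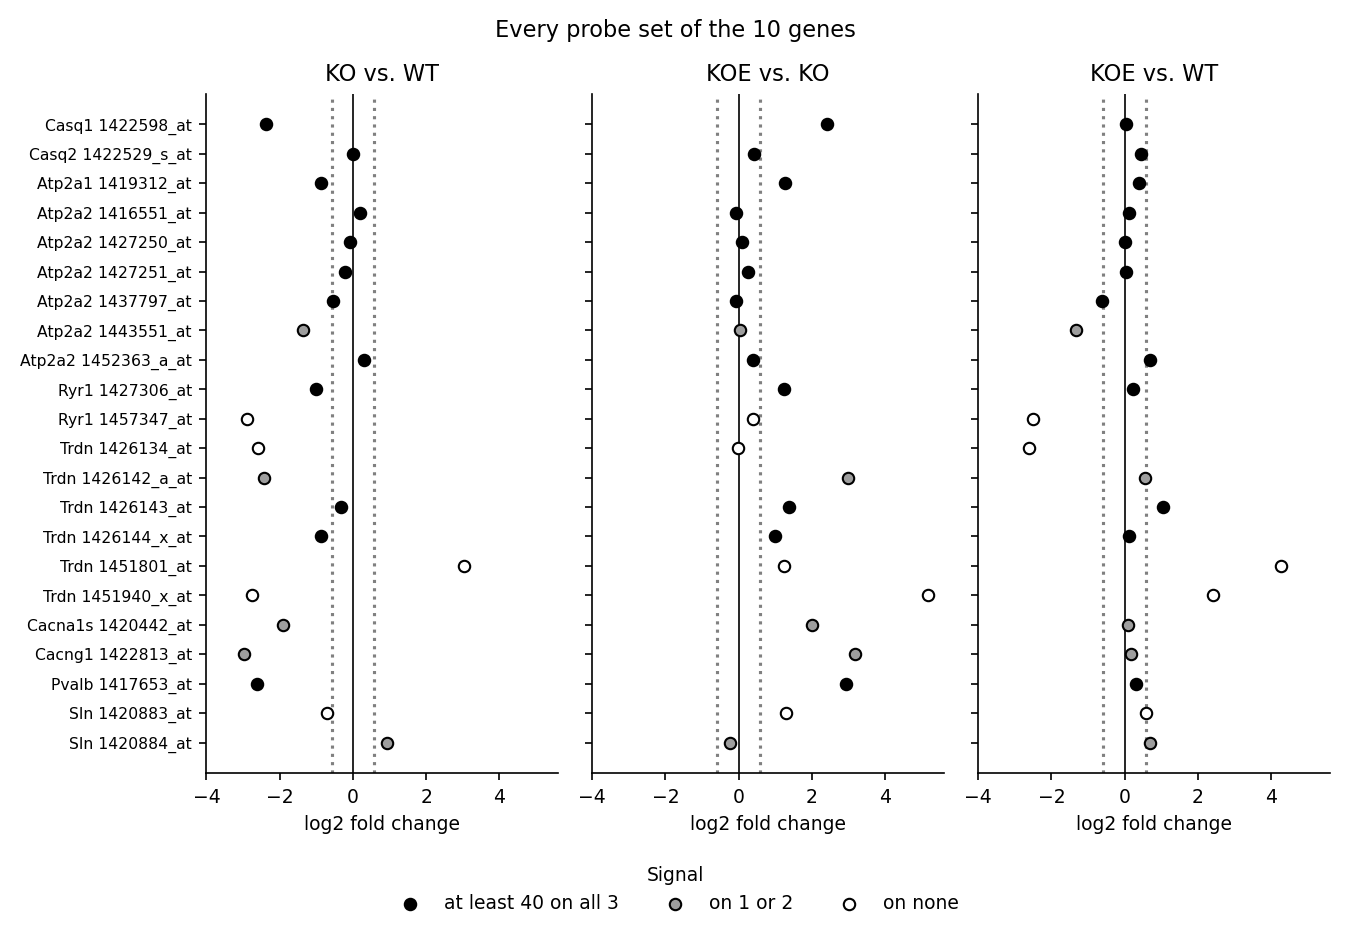
Log2 fold change of each of the 22 probe sets in the 3 comparisons between arrays, each array holding the pooled RNA of 1 group. Black points reached a signal of 40 on all 3 arrays, grey points on 1 or 2 and open points on none, and dotted lines mark 1.5-fold. Of the 12 black points, 5 lie to the left of the lines in KO vs. WT and none to the right, and 6 lie to the right in KOE vs. KO and none to the left.

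Counted by probe set, 12 of the 22 reached 40 on all 3 arrays, 5 on 1 or 2 arrays and 5 on none. For KO vs. WT, 9 of the 22 were lower past the cut-off and 1 was higher, where 20.2% of all probe sets tested were lower. For KOE vs. KO, 9 were higher and none was lower, where 14.5% of all probe sets tested were higher. Of the 12 that reached 40 on all arrays, KO was below WT for 5 and KOE was above KO for 6, where the shares over the 27228 probe sets of this kind were 14.5% and 7.12%.

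Promoters of the genes are shown to set those that differed together beside 1 that did not. RefSeq promoters (GRCm38.p6) that reach from 250 bases before to 50 bases after the start of transcription were found for 6 of the 10 genes, with 2 starts for Pvalb. Atp2a2, Trdn, Cacng1 and Sln had no entry. The 250 bases before the start of Casq1 (chr1:172219896-172220145, minus strand), Pvalb (upstream start, chr15:78206401-78206650, minus strand) and Atp2a1 (chr7:126463074-126463323, minus strand), which were lower in KO, and of Casq2 (chr3:102086165-102086414, plus strand), which was not, are given 5′ to 3′. Capitals mark the E-box, CANNTG, which binds MyoD and other basic helix-loop-helix factors, in runs of 6, and the site of the muscle factor MEF2 in runs of 10.
Casq1: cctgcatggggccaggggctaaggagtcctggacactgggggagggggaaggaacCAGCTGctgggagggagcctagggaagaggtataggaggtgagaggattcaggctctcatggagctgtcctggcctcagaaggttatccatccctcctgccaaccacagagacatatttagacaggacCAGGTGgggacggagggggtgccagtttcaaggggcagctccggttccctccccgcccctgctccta
Pvalb: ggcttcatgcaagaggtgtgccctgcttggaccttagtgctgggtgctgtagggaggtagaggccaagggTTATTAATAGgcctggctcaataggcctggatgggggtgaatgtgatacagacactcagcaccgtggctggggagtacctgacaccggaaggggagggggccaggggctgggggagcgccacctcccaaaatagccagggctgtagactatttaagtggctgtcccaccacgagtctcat
Atp2a1: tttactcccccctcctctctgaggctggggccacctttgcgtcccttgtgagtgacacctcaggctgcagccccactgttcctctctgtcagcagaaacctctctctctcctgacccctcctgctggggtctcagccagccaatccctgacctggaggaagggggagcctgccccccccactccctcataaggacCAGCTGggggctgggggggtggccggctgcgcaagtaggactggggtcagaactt
Casq2: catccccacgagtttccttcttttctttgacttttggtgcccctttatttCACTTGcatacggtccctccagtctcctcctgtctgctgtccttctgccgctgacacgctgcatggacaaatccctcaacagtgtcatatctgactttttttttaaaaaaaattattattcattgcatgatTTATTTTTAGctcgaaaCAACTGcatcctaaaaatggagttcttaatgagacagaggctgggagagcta

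Both strands of the 300 bases were searched. At least 1 E-box was present in 5 of the 7 promoters, where 72.3% of 32851 mouse promoters of this length hold one, which is close to that share. Casq1 held 2, at 195 and 67 bases before the start, and Atp2a1 held 1, at 55 bases before. Casq2, which was not lower in KO, held 2 as well, at 200 and 52 bases before, and Ryr1, which was lower, held none. A MEF2 site was present in the upstream promoter of Pvalb and in that of Casq2, at 180 and 69 bases before the start, against 3.19% of all promoters. Thus a gene that was lower in KO and one that was not both held it. The TATA box, searched as TATAAA, was in none of the 7, where 13.6% of all promoters hold it.

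The other genes of the calcium release machinery were counted from a fixed list of 15, all of them measured. Between KO and WT, 6 were lower and none was higher past the cut-off, with a median log2 fold change of −0.50, and for KOE vs. KO 7 were higher and none was lower, with a median of 0.55. After scaling to a common median, quantile or cyclic loess normalization, 4, 5 and 5 were lower and 2 were higher in KO, with medians of −0.23, −0.22 and −0.28. With at least 40 on both arrays or with 40 added to every signal, 3 were lower. Stac3, an adaptor needed for the voltage sensor in skeletal muscle, had 106 (WT), 23.2 (KO) and 67.6 (KOE). Ryr2, the ryanodine receptor of heart, had 56.2, 27.8 and 75.1. Both were lowest in KO, and Stac3 stayed below its WT signal in KOE. Other genes of the list are expressed far beyond muscle. Fkbp1a, an immunophilin bound to ryanodine receptors, had 6706 (WT), 6346 (KO) and 7702 (KOE). S100a1, a calcium-binding regulator of the same receptors, had 5004, 3067 and 3047, and was thus lower in both knockout pools than in WT.

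Calcium pumps, channels and chaperones of many cell types did not share the pattern on these arrays. Of 12 measured genes, none was lower and 2 were higher in KO than in WT, and for KOE vs. KO all 12 were within the cut-off, with medians of 0.33 and −0.04. After scaling to a common median, 7 were higher in KO than in WT, with a median of 0.60, while the median of all genes rose to 0.29. Calr, the calcium-binding chaperone of the endoplasmic reticulum, had 7878 (WT), 7862 (KO) and 7379 (KOE), and Atp2b1, a calcium pump of the plasma membrane, had 2100.2, 2051 and 1788. Micu2, which regulates mitochondrial calcium uptake, had 2945, 4357 and 4045, and Mcu, the pore of that uptake channel, had 720.3, 956 and 1174.

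Genes of the contractile apparatus lay in the direction of the calcium genes for KO vs. WT and KOE vs. KO. Of 12 genes for the sarcomere and fiber metabolism, KO was below WT past the cut-off for 9 and above it for 1. For KOE vs. KO, 10 were higher and none was lower, and the 2 medians were −0.91 and 1.40. In KOE compared with WT, 8 of the 12 were higher and none was lower, with a median of 0.68, where 12.4% of all genes tested were higher. At a fold limit of 2 that count was 1. Of the 10 calcium genes, 1 was higher in KOE than in WT, with a median of 0.21. Acta1, skeletal muscle actin, had 5093 (WT), 2497 (KO) and 9799 (KOE), and Ckm, muscle creatine kinase, had 1942, 741 and 2916. Mb, myoglobin, had 633, 162 and 1127, and Eno3, muscle enolase, had 1283, 330 and 1392. Of 10 fast fiber genes, KO was below WT for 8 and above it for 1, with a median of −1.76, and 9 were higher in KOE than in KO, with a median of 2.20. Tnnc2, the fast troponin that binds calcium, had 4947 (WT), 1259 (KO) and 6291 (KOE).

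Within the fast myosins the differences were unequal. Myh4, the heavy chain of the fastest fibers, had 4309 (WT), 217 (KO) and 3926 (KOE). Myl1, a fast myosin light chain, had 4753, 411 and 5735. Both of these probe sets were lowest in KO, as those of Casq1 and Pvalb were. Myh1 and Myh2, heavy chains of other fast fibers, were looked at after their values were seen. For KO vs. WT they did not follow Myh4, Myh1 being within the cut-off and Myh2 past it in the higher direction. For KOE vs. KO, Myh1 was higher like Myh4, at 1.73-fold, and Myh2 was within the cut-off. Myh1 had 2230 (WT), 2779 (KO) and 4804 (KOE), and Myh2 had 178, 312 and 296.

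Slow fiber genes were weak, and smooth muscle genes lay the other way. Of 8 slow fiber genes, 5 reached 40 on at least 1 array. Of these, 2 were higher and none lower in KO than in WT, and 1 was higher in KOE than in KO. Mybpc1, a myosin-binding protein, had 577 (WT), 692 (KO) and 947 (KOE), Myoz2, a protein of the Z-disc, had 46.6, 81.2 and 108, and Tnnt1, slow troponin T, had 9.34, 50.9 and 79.4. The slow myosin gene Myh7 stayed under 40 on every array, with at most 13.5. Of 8 smooth muscle genes, 7 were higher and none lower in KO than in WT, and none was past the cut-off for KOE vs. KO, with medians of 0.83 and 0.04. Acta2, smooth muscle actin, had 9096 (WT), 14036 (KO) and 15283 (KOE), and Mylk, the kinase of myosin light chains, had 3642, 6313 and 6074. Lmod1, an actin nucleator, had 83.2, 250.1 and 207, and Smtn, smoothelin, had 1071, 814 and 1043.

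**Figure D3:**
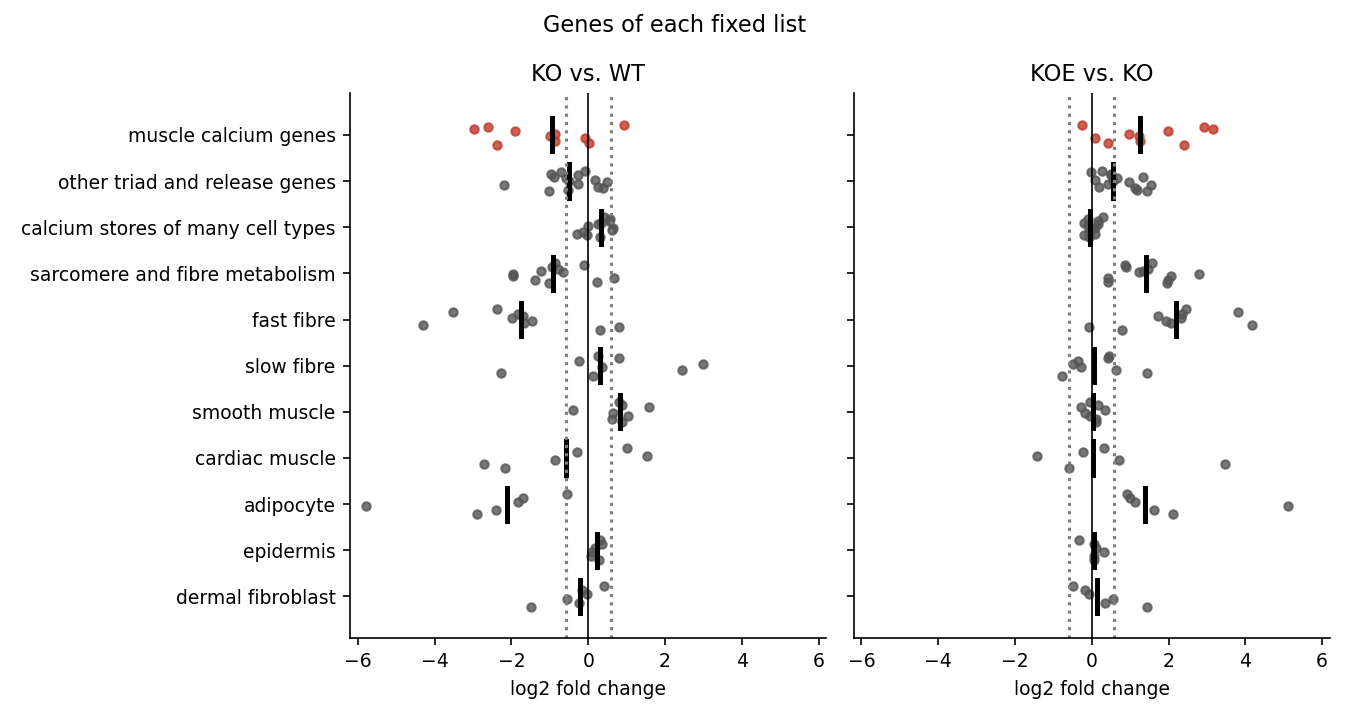
Log2 fold changes of the genes measured in 11 fixed lists, with KO vs. WT in the left panel and KOE vs. KO in the right panel. Points are genes, black bars are medians, dotted lines mark 1.5-fold, and each group is 1 array of pooled RNA. The muscle calcium genes (red, medians −0.93 and 1.24) lie in the direction of the sarcomere genes (−0.91 and 1.40) and fast fiber genes (−1.76 and 2.20), and not in that of the smooth muscle genes (0.83 and 0.04).

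In RNA of back skin, where cell types are mixed, fewer muscle cells in the sample and less RNA per muscle cell cannot be told apart. The summed signal of the 10 fast fiber genes, all of which reached 40 on every array, was 25638 (WT), 7815 (KO) and 33339 (KOE). Adipocyte genes moved in the same direction for KO vs. WT and KOE vs. KO, but not for KOE vs. WT. Their 6 measured genes summed to 18836 (WT), 5325 (KO) and 11536 (KOE). Of these, Ucp1 stayed under 40 on every array, with at most 3.02, so it could not be called past the cut-off. For all 5 others KO fell below WT past the cut-off, against 14.5% of all genes tested. KOE exceeded KO past it for the same 5, against a share of 10.9%. Fabp4, a fatty acid carrier, had 15268 (WT), 4731 (KO) and 9406 (KOE), and so made up most of each adipocyte sum. Adipoq, the hormone adiponectin, had 2194, 296 and 1289. Lep, the hormone leptin, had 221, 4.02 and 139. The part of the muscle and fat content of the samples in the differences of the calcium genes was not tested.

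Markers of the skin itself were strong on all arrays. The 6 epidermal genes summed to 103900 (WT), 121154 (KO) and 126896 (KOE), with none past the cut-off, and Krt10, a keratin of differentiating keratinocytes, had 29571, 33694 and 36463. Lor, a protein of the cornified envelope, had 21527, 27455 and 28758, Ivl, another of its proteins, had 6680, 8196 and 6559, and Krt1, the partner of Krt10, had 5982, 6435 and 7967. The 6 dermal fibroblast genes summed to 137582, 108546 and 132200, with 1 lower in KO than in WT, Col1a1, which had 16664 (WT), 5880 (KO) and 16038 (KOE). Col3a1, a further fibrillar collagen, had 33961, 23146 and 33914, and Dcn, the proteoglycan decorin, had 32742, 32111 and 30539. The fibroblast counts depended on the processing. With the mean of all probe sets, KO fell below WT past the cut-off for 3 of the 6, with a median of −0.58. Under that mean KOE exceeded KO for 3, against 1 as deposited. After quantile or cyclic loess normalization KO fell below WT for 2. After scaling to a common median KO fell below WT for 1 and exceeded it for 1. The arrays had median signals of 116 (WT), 96.3 (KO) and 108 (KOE), and 30769, 29390 and 31298 probe sets at 40 or more.

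The genes nearest to the middle of the set were sought among 13943 others with at least 40 in WT. Distance was taken from the median log2 fold changes of the 9 genes other than Atp2a2, −0.99 (KO vs. WT) and 0.24 (KOE vs. WT). Both medians are the values of Ryr1, and the 9 genes ran from −2.99 to 0.94 for KO vs. WT. The genes found are thus neighbors of Ryr1 and not of every gene of the set. With 3 arrays this rests on a pair of values per gene. The nearest were Ccl4, Gbgt1, Nectin1, Wscd1 and Tmem217, at distances of 0.05 to 0.08. Ccl4, a chemokine, had 188 (WT), 97.4 (KO) and 223 (KOE), and Gbgt1, a glycosyltransferase, had 54.0, 27.0 and 66.3. None of the 5 belongs to the muscle lists.

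The scaling of the arrays moved all genes, the calcium genes among them, while the counts of calcium genes past the cut-off stayed the same. After scaling to a common median, the median log2 fold change over all genes tested went from 0.01 to 0.29 for KO vs. WT and from 0.02 to −0.14 for KOE vs. KO, and the shares past the cut-off became 23.2% higher and 8.88% lower in KO than in WT, and 8.00% higher and 9.01% lower in KOE than in KO. After quantile normalization the shares were 14.7% and 10.9% for KO vs. WT and 7.71% and 7.83% for KOE vs. KO, and after cyclic loess normalization 13.0% and 11.8%, and 7.15% and 7.53%. Under each of these scalings KO was below WT for 7 of the 10 calcium genes, and KOE was above KO for 7. For KO vs. WT some of these lay close to the cut-off, which is 0.585 in log2. After scaling to a common median, Atp2a1 and Trdn were at −0.598 and −0.600, and after quantile normalization Trdn was at −0.628. The median of the 10 genes was −0.66, −0.78 and −0.85 for KO vs. WT, and 1.08, 1.17 and 1.19 for KOE vs. KO.

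**Figure D4:**
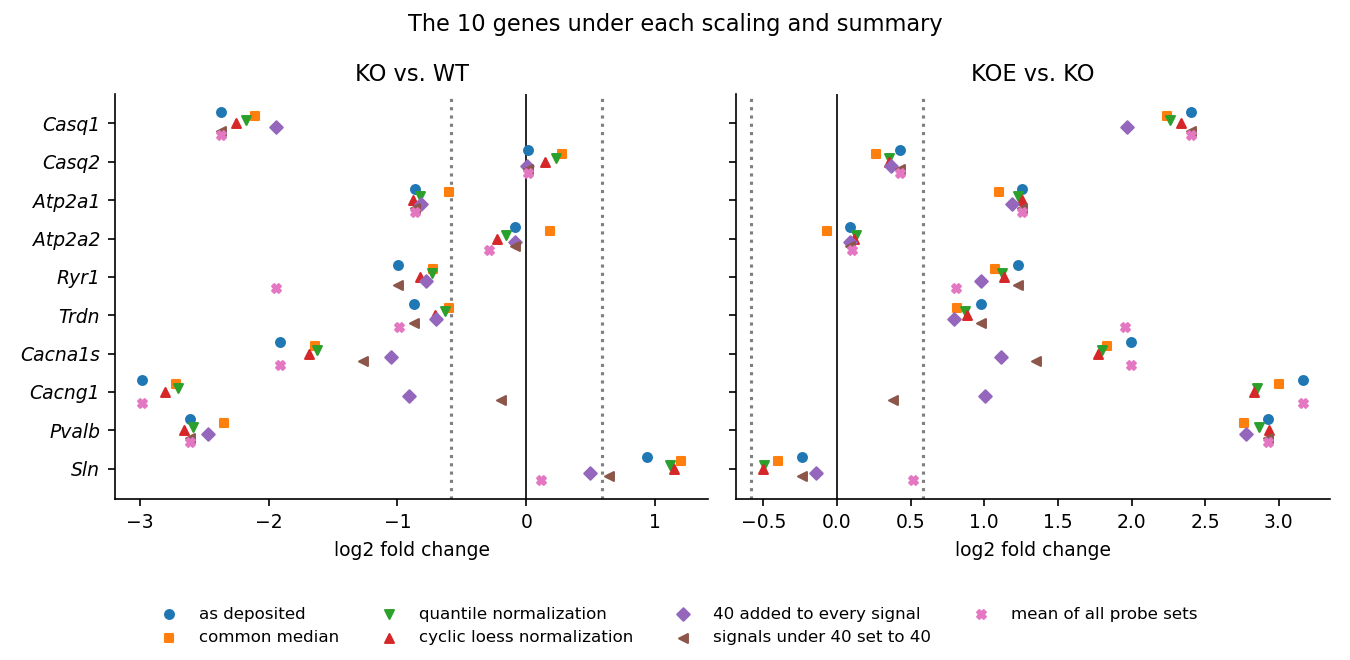
Log2 fold change of the 10 genes for KO vs. WT (left) and KOE vs. KO (right) as deposited, after 3 scalings, with 40 added, with signals under 40 set to 40, and averaged over all probe sets of a gene. Dotted lines mark 1.5-fold, and the 2 panels have different ranges. Casq1 and Pvalb keep their place, Cacng1 moves from −2.99 to −0.20 when low signals are set to 40, and Ryr1 and Trdn depend on the probe sets averaged.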

How the data were processed

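Pooled back-skin RNA of the WT, KO and KOE groups was measured on 3 Affymetrix mouse genome arrays. The deposited values are signal intensities, which the authors made with Microarray Analysis Suite 5 and R, and the 2% trimmed mean of each array was checked to be 500. Without 64 control probe sets, 45037 remain. Of these, 34945 name 1 gene, 932 several and 9160 none. The strongest probe set on average stood for a gene, ratios are of the signals as deposited, and the cut-off was 1.5-fold with 40 or more on either array. A single array per group allows no test, and precision is limited by the number of arrays.

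Named genes are all probe sets of the 10 genes, the 2 strongest and the 2 with the largest difference for KOE vs. KO of each other list, and the 5 nearest genes. Myh1, Myh2, Myh6, Myh7 and Myl7 were added after their values were seen. The 10 genes and the lists were chosen with earlier results of these data known. Some genes of the general calcium, adipocyte and nerve lists were not analysed here. Alternatives varied whether 1 or both arrays must reach 40, the signal limit (20 or 100), the scaling (common median, quantile, or cyclic loess, span 0.7, 3 iterations), low signals, the fold limit (2) and the probe sets averaged. The cut-off procedure was tested on simulated data. The software was Python 3.11.15, pandas 2.3.3, numpy 2.4.6, R 4.3.3 and limma 3.58.1.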

Additional observations from a re-analysis of the deposited data

How the results depend on the processing

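No paired analysis was possible because each group is 1 array, and no array could be left out. Of 60 counts of the 10 genes under the alternatives, 48 were equal to the count reported or within 1.5 times it. These include counts of 0 that stayed 0, as for genes lower in KOE than in KO, so the tally overstates stability. Of 18 medians, 16 moved by less than the spread between probe sets of a gene. For KO vs. WT, 4 genes were lower at a fold limit of 2, against 7, and 5 with at least 40 on both arrays or with a signal limit of 100, where 7.76%, 10.5% and 11.4% of all genes tested were lower. The count of genes higher in KO than in WT, which is Sln alone, went from 1 to 0 with at least 40 on both arrays, a signal limit of 100, 40 added to every signal, a fold limit of 2 or the mean of all probe sets. The count of genes higher in KOE than in WT, again Sln, went from 1 to 0 with at least 40 on both arrays, a signal limit of 100, 40 added, signals under 40 set to 40 or a fold limit of 2. For KOE vs. KO, 5 to 7 genes were higher under every alternative run and none was lower. Over all genes tested, the share higher ran from 5.26% (fold limit 2) to 14% (signal limit 20). The share lower ran from 2.29% (fold limit 2) to 9.01% (common median). With the mean of all probe sets the median of the 10 genes was −1.45 (KO vs. WT) and 1.61 (KOE vs. KO). Ryr1 became lower in KOE than in WT, with a log2 fold change of −1.13 that its weak probe set sets. Under that mean the gene higher in KOE than in WT was Trdn, at 0.97, and Sln was no longer counted. Trdn was then also no longer counted as lower in KO than in WT, since both averaged signals were under 40.

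Of 720 counts over the other lists, 610 were equal to those reported or within 1.5 times them, again with counts of 0 that stayed 0 included. At a fold limit of 2, KO was below WT for 5 of the sarcomere genes and 2 of the other release genes, and above WT for 2 of the smooth muscle genes. The other release genes higher in KOE than in KO fell from 7 to 4 with at least 40 on both arrays or the mean of all probe sets, and to 3 with a signal limit of 100. Signals near 40 limit Cacna1s, Cacng1 and Sln, and the lack of replicates limits all values.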

Other observations

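Genes of muscle precursors and of the nerve-muscle junction were near the signal limit. Of 8 such genes, 5 reached 40 on at least 1 array. In KO, 3 were lower and none was higher than in WT, where 14.5% of all genes tested were lower. These 3 had KO signals under 40. With at least 40 on both arrays, a signal limit of 100 or 40 added to every signal, none was lower. In KOE, 2 were higher and 2 lower than in KO, where the shares were 10.9% and 5.33%. With at least 40 on both arrays, none was higher and 1 was lower. Myf6, a transcription factor of mature fibers, had signals of 45.0, 16.8 and 59.8 in the WT, KO and KOE pools. Musk, a kinase of the junction, had 70.9, 63.6 and 41.1, and Chrna1, a subunit of the acetylcholine receptor, had 69.6, 37.4 and 47.2. Cdh15, a cadherin of muscle precursors, had 66.9, 49.0 and 28.0, and was thus lowest in KOE.

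Of 6 genes that mark heart muscle, 3 reached 40 on at least 1 array, while the heart myosin Myh6 and the light chain Myl7 did not exceed 13.2 on any array. Tnnt2, a troponin of heart and developing muscle, had 244 (WT), 490 (KO) and 609 (KOE). Nppa and Nppb, natriuretic peptide genes, had 23.9, 3.63 and 40.2, and 114, 62.3 and 101. Of 6 measured nerve and Schwann cell genes, 3 reached 40. None of them was past the cut-off for KO vs. WT or KOE vs. KO, with Pmp22, a myelin protein, at 5343, 6113 and 6993, Sox10, a factor of Schwann cells and melanocytes, at 211, 310 and 344, and Gap43, a growth cone protein, at 54.1, 44.9 and 60.8.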
